A study of Monodelphis domestica and Mus musculus with 26 samples.

Results

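The genes MGLL, MAP7D2, ORMDL3, CYP2U1, PKIA, EMX2, DDIT4L and G2E3 were taken by symbol because, in these single-cell data of the testis, their transcript levels were listed as moving in opposite directions between meiotic cells and round spermatids in the mouse and in the gray short-tailed opossum, a marsupial. They are 8 of the 10751 genes whose symbol occurs once in the features of each species, and all 8 were also listed in the opossum bulk tables. They were chosen by their single-cell changes from spermatogonia to spermatocytes to round spermatids in both species. Germ-cell differences are therefore given below as a description with no test. In these data the mean changes of 6 of the 8 genes differed in sign between the species. EMX2 was lower in round spermatids than in spermatocytes in the mouse. In the opossum spermatocytes and round spermatids EMX2 stood at only 5 counts and 1 count, and DDIT4L at 1 and 0 counts. An opposite change was thus not seen for those 2 genes and, on the opossum side, could not be measured from so few counts.

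Spermatogonia divide in the basal part of the seminiferous tubule, spermatocytes pass through meiosis, and round spermatids are the haploid cells that later elongate and pack their DNA with protamines. Sertoli cells nurse the germ cells inside the tubule, Leydig cells between the tubules make testosterone, and peritubular and stromal cells form the tubule wall and the interstitium. Transcription in meiotic prophase and in round spermatids runs under partly separate programs, and the X chromosome is transcriptionally silenced during the pachytene stage.

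The single-cell data came from whole testis of 3 adult mouse libraries, of which replicates 1 and 2 are labelled C57BL6/J and replicate 3 carries no strain label, and of 3 adult opossum libraries. The bulk data came from whole opossum testis at 1 month (n = 2), 2 months (n = 4), 3 months (n = 4), 4 months (n = 3) and in adults (n = 7). No group carried a treatment or allele in its labels, and the labels do not say whether libraries of a group came from separate animals, so p-values measure the spread between these libraries, which may be technical. The 4 rRNA-depleted libraries were replicates 2 to 4 at 2 months and adult replicate 2, and the other 16 were polyA-selected.

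After filtering, 5147 to 8724 cells per single-cell library remained, with median depths of 1619.9 to 4446.7 UMIs (unique molecular identifiers, 1 per captured transcript) per cell. Cells were clustered within each species, and each cluster was named after the marker list it scored highest for, so every class below means cells like that type. Mouse libraries 1 and 2 shared 198 cell barcodes, and the other pairs within a species shared 0 to 43. Of the opossum cells called Sertoli-like, 2520 of 2755 lay in a cluster whose leading genes included ALAS2, an erythroid heme enzyme, and none of its 4 Sertoli markers was among its 10 leading genes. In the opossum elongating class, 2179 of 3328 cells lay in a cluster named on 3 markers. A mouse cluster of 3291 cells led by hemoglobin genes stayed unnamed, with 1937, 1202 and 152 cells in replicates 1 to 3. Transcripts of germ cells were also counted in somatic classes: the protamine transcript PRM1 stood at a mean of 716 to 2930 CPM (counts scaled to the same total in every class and library) in the opossum somatic classes against 39900 in elongating spermatids, and at 15700 in mouse Sertoli-like cells against 62500, and the source of these counts was not tested.

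In the mouse genome (GRCm39) Mgll lies at chr6:88652108-88805342 on the plus strand, Map7d2 at chrX:158197438-158283103 (plus), Ormdl3 at chr11:98472081-98478194 (minus) and Cyp2u1 at chr3:131082090-131096876 (minus). Pkia lies at chr3:7431432-7510429 (plus), Emx2 at chr19:59446804-59453789 (plus), Ddit4l at chr3:137327282-137334229 (plus) and G2e3 at chr12:51394803-51423771 (plus). Map7d2 is the only X-linked member in the mouse, and in the opossum tables MAP7D2 is on chromosome 4. CYP2U1 and DDIT4L are both on chromosome 5 in the opossum, and Cyp2u1, Pkia and Ddit4l are all on chromosome 3 in the mouse.

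Upstream sequence was searched on both strands for a cAMP response element (TGACGTCA), a MYB core site (AACNGTT) and the RFX palindrome of paired half-sites, because factors binding such sites act in meiotic or haploid germ cells. Each window ends at the start of the gene's canonical transcript, which for Mgll, Ddit4l and Cyp2u1 lies inside the gene span given above (windows chr6:88701144-88701393, chr3:137329183-137329432 and chr3:131096874-131097123). In the 250 bases before that start in 21770 mouse protein-coding genes these motifs occurred in 1.69%, 3.66% and 0.322% of the windows. Of the 8 genes, Pkia had a MYB match 207 bases before its start, and the other 7 windows held none of the 3 motifs. The Pkia window (GRCm39 chr3:7431182-7431431, plus strand, from the reference assembly) is shown because it is the single match in the list, with the matched bases in capitals.
Pkia: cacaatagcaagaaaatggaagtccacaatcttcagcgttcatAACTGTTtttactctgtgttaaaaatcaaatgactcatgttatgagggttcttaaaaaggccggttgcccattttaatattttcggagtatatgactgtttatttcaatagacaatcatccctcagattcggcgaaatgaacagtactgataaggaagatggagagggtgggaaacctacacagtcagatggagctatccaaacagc
A match describes letters in this window and does not show that a factor binds there.

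Monoacylglycerol lipase, encoded by MGLL, hydrolyses 2-arachidonoylglycerol, the main endocannabinoid of many tissues. In mouse spermatogonia MGLL stood at 67.7, 57.1 and 52.3 CPM in replicates 1 to 3, and in spermatocytes at 142, 94.0 and 250 CPM. It stood at 10.8, 8.55 and 7.02 CPM in mouse round spermatids and at 5.91, 4.34 and 0.245 CPM in elongating spermatids. Every mouse library was thus higher in spermatocytes than in round spermatids, with no overlap between those classes. In the opossum the order was the other way round: spermatogonia held 0, 1.27 and 0 CPM, spermatocytes 0.354, 5.14 and 0.307 CPM. Round spermatids held 260, 160 and 241 CPM and elongating spermatids 144, 214 and 277 CPM. The change from spermatocytes to round spermatids, on the log2(CPM + 0.5) scale used for all such changes, was -4.03 ± 0.9 (SD, n = 3) in the mouse and 7.10 ± 1.97 (SD, n = 3) in the opossum.

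CYP2U1 is a cytochrome P450 that hydroxylates long-chain fatty acids. In the opossum it was close to a marker of round spermatids, at 214, 227 and 201 CPM against 0.543, 7.25 and 1.06 CPM in spermatocytes and 15.7, 27.6 and 21.9 CPM in elongating spermatids. The 3 round-spermatid values lay above every other class of their species. In the mouse CYP2U1 was low throughout: 9.22, 6.96 and 2.53 CPM in spermatogonia, 6.46, 5.29 and 9.23 CPM in spermatocytes and 1.16, 2.16 and 0.873 CPM in round spermatids. The change from spermatocytes to round spermatids was -2.0 ± 0.85 (SD, n = 3) in the mouse and 6.53 ± 1.47 (SD, n = 3) in the opossum, and the mouse side of it rests on levels under 10 CPM.

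MAP7D2 belongs to a family of microtubule-associated proteins that recruit kinesin-1. In the mouse it marked spermatogonia, at 183, 156 and 234 CPM, and stood at 9.48, 1.51 and 32.9 CPM in spermatocytes and at 0.0542, 0.265 and 0.233 CPM in round spermatids. In opossum spermatogonia it stood at 4.91, 18.2 and 19.6 CPM and in spermatocytes at 4.71, 8.95 and 10.5 CPM. Opossum round spermatids held 303, 72.6 and 223 CPM and elongating spermatids 195, 238 and 386 CPM, so replicate 2 was the low library in the round class. The change from spermatocytes to round spermatids was -3.69 ± 2.1 (SD, n = 3) in the mouse and 4.39 ± 1.46 (SD, n = 3) in the opossum.

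ORMDL3 is a membrane protein that restrains serine palmitoyltransferase, the entry enzyme of sphingolipid synthesis. In the mouse it dipped in spermatocytes: spermatogonia held 81.6, 101 and 80.9 CPM, spermatocytes 1.65, 0.9 and 2.88 CPM and round spermatids 36.7, 37.6 and 79.4 CPM. Mouse elongating spermatids held 34.3, 31.7 and 56.6 CPM, within the range of round spermatids apart from replicates 1 and 2, which were lower. In the opossum the early classes were the high ones, at 21.4, 21.7 and 25.0 CPM in spermatogonia and 14.1, 14.2 and 18.1 CPM in spermatocytes, against 0.783, 0.152 and 0.979 CPM in round spermatids. The change into round spermatids was 4.48 ± 0.34 (SD, n = 3) in the mouse and -3.89 ± 0.54 (SD, n = 3) in the opossum. The opossum round-spermatid sum was only 3 counts, and the ratio of spermatocytes to round spermatids was 33.2 (95% exact interval 11.1 to 163, which covers counting error only).

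G2E3 is a ubiquitin ligase with PHD and HECT domains, named for its expression in the G2 and M phases. It was highest in round spermatids in the mouse, at 107, 96.8 and 125 CPM against 13.0, 15.3 and 29.8 CPM in spermatocytes, and highest in spermatocytes in the opossum, at 265, 252 and 229 CPM against 15.1, 10.2 and 27.7 CPM in round spermatids. Spermatogonia lay between these levels in both species, at 26.6, 25.9 and 54.1 CPM in the mouse and 52.7, 35.3 and 49.5 CPM in the opossum. The change was 2.56 ± 0.47 (SD, n = 3) in the mouse and -3.89 ± 0.78 (SD, n = 3) in the opossum, with no overlap between the classes in either species. G2E3 was the only one of the 8 genes above 10 CPM in both classes in every library of both species.

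PKIA is an inhibitor peptide of cAMP-dependent protein kinase. In the opossum it marked spermatogonia, at 104, 108 and 131 CPM, and stood at 1.83, 2.21 and 0.764 CPM in spermatocytes and 0.606, 0 and 1.53 CPM in round spermatids. In the mouse it was low in every germ class: 2.80, 3.53 and 3.76 CPM in spermatogonia, 0.0963, 0.245 and 0.272 CPM in spermatocytes and 2.24, 2.43 and 12.8 CPM in round spermatids. The change was 2.76 ± 1.17 (SD, n = 3) in the mouse. In the opossum it was -0.94 ± 1.56 (SD, n = 3), and replicate 3 went the other way, at 0.68. The opposite signs of PKIA therefore hold here for the means and not for every library. This depends on the setting: the opossum change was -4.43 (-5.95 to -2.51 over the libraries) in cells of at least 2000 UMIs and -4.62 (-5.83 to -3.19) at clustering resolution 2, where every opossum library was lower in round spermatids. In those same settings the opossum change from spermatogonia to spermatocytes was -2.09 and -2.20 in place of -5.84, so the spermatocyte class then held more PKIA. Summed over libraries, 17 counts stood in opossum spermatocytes and 3 in round spermatids, a ratio of 3.78 (95% exact interval 1.09 to 20.2).

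EMX2 is a homeobox factor needed for the early gonad and urogenital tract. In the mouse it was highest in spermatocytes, at 22.9, 31.6 and 25.0 CPM, and stood at 8.74, 14 and 8.98 CPM in round spermatids and 0.302, 0 and 2.25 CPM in spermatogonia. In the opossum spermatogonia were the high germ class, at 6.17, 10.4 and 11.4 CPM, against 0.363, 0.84 and 0.164 CPM in spermatocytes and 0, 0.319 and 0 CPM in round spermatids. The change into round spermatids was -1.30 ± 0.15 (SD, n = 3) in the mouse and -0.64 ± 0.2 (SD, n = 3) in the opossum. The opossum value rests on 5 counts against 1, a ratio of 3.34 (95% exact interval 0.374 to 158), so its direction is not established, and with counts rounded up its libraries ranged from -0.75 to 0.2. The change whose sign differed in every library was the one before it, from spermatogonia to spermatocytes, at 4.69 ± 1.4 (SD, n = 3) in the mouse and -3.38 ± 0.68 (SD, n = 3) in the opossum. That earlier change was also among those used to choose the genes.

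DDIT4L, a relative of the stress gene DDIT4, restrains the mTOR complex 1. In the mouse it stood at 1.5, 5.54 and 0.893 CPM in spermatogonia, 87.7, 121 and 39.1 CPM in spermatocytes and 45.2, 66.2 and 26.9 CPM in round spermatids. Each library was higher in spermatocytes than in round spermatids, while the classes overlapped across libraries, and the change was -0.78 ± 0.22 (SD, n = 3). In the opossum spermatocytes held 0, 0 and 0.382 CPM and round spermatids 0 in all 3 libraries, or 1 and 0 counts in all, so no fold is given. A count of 0 allows up to 0.743 to 2.54 CPM in these libraries, at 3 counts per library.

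**Figure D1:**
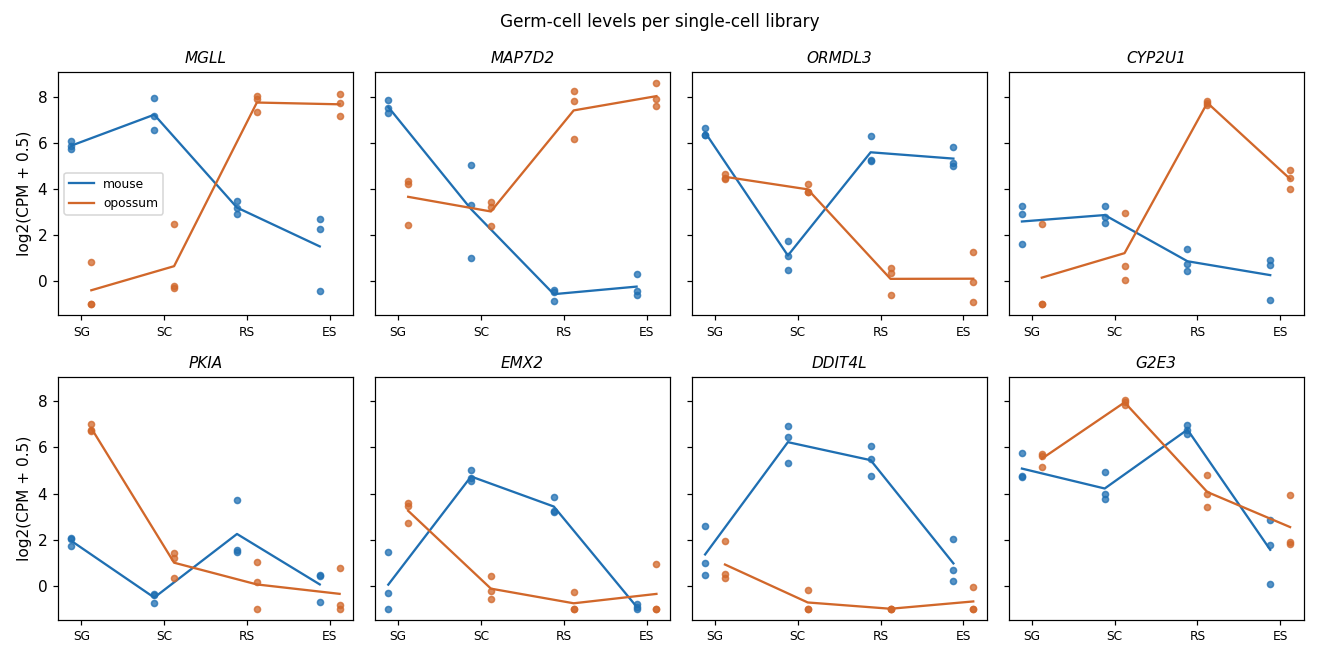
Levels of the 8 genes in spermatogonia (SG), spermatocytes (SC), round (RS) and elongating spermatids (ES) as log2(CPM + 0.5), 1 point per single-cell library of mouse and opossum, with a line through the means. MGLL, MAP7D2 and CYP2U1 are high in opossum round spermatids and low in mouse ones, and G2E3 has its highest class in spermatocytes in the opossum and in round spermatids in the mouse.

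Estimated counts in these files are not whole, and the deposited value of a cell can lie below the next whole number. When each value was rounded up, the signs of MGLL, CYP2U1 and ORMDL3 were kept, while the opossum change was 4.29 for MGLL and 4.66 for CYP2U1 and the mouse change was 3.15 for ORMDL3. The summed estimate of MGLL lay 78.9% below its rounded-up sum in opossum spermatocytes and 6.91% below it in round spermatids, where all genes lay 12.6% and 11.2% below. CYP2U1 lay 60.7% and 3.35% below, and MAP7D2 46.8% and 5.08%. ORMDL3 lay 7.4% below in opossum spermatocytes and 53% in round spermatids, and G2E3 2.38% and 24.4%. In the mouse MGLL lay 4.54% below in spermatocytes and 40% in round spermatids, and ORMDL3 69.4% and 10.9%. For these genes the low class was thus the one in which the estimates lay farthest under the rounded-up counts, and the part of this step in the size of the changes was not tested beyond the rounded-up values.

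Within the opossum spermatid classes the genes were not spread evenly over clusters. MGLL stood at 985 CPM in a round-spermatid cluster of 294 cells (1000, 843 and 1150 CPM in the 3 libraries) and at 102 CPM in the other, of 1496 cells. MAP7D2 followed the same split, at 1120 CPM (1380, 805 and 1220 CPM) against 30.7 CPM. The small cluster was named on 4 markers, and its summed markers of round spermatids (1300 CPM) were below those of the large cluster (1770 CPM) and of a spermatocyte cluster (1980 CPM), while its summed spermatogonial markers were 2070 CPM against 654 CPM in the large cluster. In the large cluster alone MGLL stood at 81.8, 113 and 79.3 CPM and MAP7D2 at 43.9, 22.8 and 46.3 CPM. These values lay above those of the opossum spermatocyte class as a whole. CYP2U1 did not follow the split: it stood at 260 CPM (207, 299 and 273 CPM) in the small cluster and at 215 CPM (216, 222 and 188 CPM) in the large one. In the elongating clusters MGLL and MAP7D2 stood at 353 and 444 CPM in 501 cells, at 44.2 and 39.7 CPM in 2179 cells and at 1.65 and 7.71 CPM in 648 cells, while CYP2U1 stood at 32.1, 20.1 and 3.67 CPM. The clusters were built on all genes, so these differences are a description, and clusters carry no order in time.

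The mouse classes were also uneven. MGLL stood at 333 CPM in a mouse spermatocyte cluster and at 19.2 CPM in another, and MAP7D2 stood at 159 CPM in that second cluster and at 0.3 to 1.3 CPM in the other spermatocyte clusters. The mean level of MAP7D2 in mouse spermatocytes therefore came from 1 cluster. EMX2 and DDIT4L were both highest in the same mouse spermatocyte cluster, at 42.6 and 141 CPM. In the unnamed mouse cluster led by hemoglobin genes DDIT4L stood at 75.8, G2E3 at 52.6, MGLL at 43.5, ORMDL3 at 17.4 and EMX2 at 16.3 CPM.

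**Figure D2:**
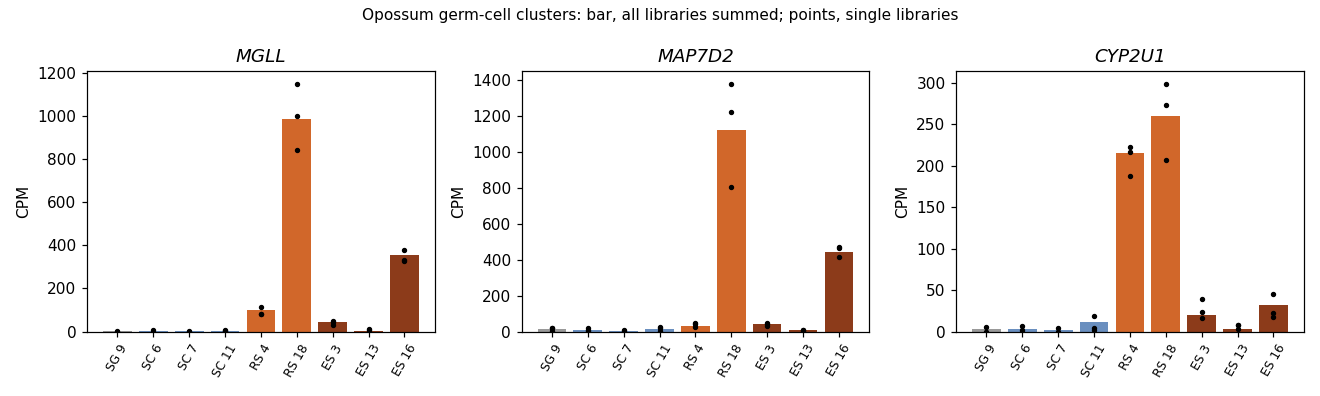
Levels of MGLL, MAP7D2 and CYP2U1 in the opossum germ-cell clusters, in CPM, labelled by class and cluster number, with a bar for all libraries summed and a point for each library. MGLL and MAP7D2 reach 985 and 1120 CPM in 1 round-spermatid cluster of 294 cells, while CYP2U1 stands at 260 and 215 CPM in both round-spermatid clusters.

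Detection per cell was compared after thinning every cell to 1000 UMIs. MGLL was found in a mean of 11.3% of mouse spermatocytes and 1.81% of mouse round spermatids, and in 0.323% and 16.2% of the opossum ones. CYP2U1 was found in 16.6% of opossum round spermatids and 0.0824% of mouse ones. MAP7D2 was found in 15.3% of mouse spermatogonia and in 13.9% of opossum round spermatids. G2E3 was found in 10.6% of mouse round spermatids and in 19.5% and 2.45% of opossum spermatocytes and round spermatids. ORMDL3 was found in 0.553% of mouse spermatocytes and 6.21% of mouse round spermatids, PKIA in 8.43% of opossum spermatogonia, and DDIT4L in 6.51% and 4.86% of mouse spermatocytes and round spermatids. Without thinning, MGLL and CYP2U1 were found in 25.8% and 39.1% of opossum round spermatids. For the pairs of spermatocyte and round-spermatid shares given here the order was that of the CPM. Opossum immune cells, thinned to the same depth, held MGLL in 0.165% and MAP7D2 in 0.287% of cells, so the share of MGLL in opossum spermatocytes was close to theirs.

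Opossum levels from round to elongating spermatids depended on the large elongating cluster that was named on 3 markers. With it, the log2 change was -0.08 for MGLL, 0.62 for MAP7D2, -3.31 for CYP2U1 and -1.52 for G2E3. Without it, a setting chosen after seeing the data, the changes were 0.25, 0.97, -3.33 and -4.49. The means of CYP2U1 and G2E3 were lower in elongating than in round spermatids either way. MGLL ranged from -0.85 to 0.42 over the libraries with the cluster, and MAP7D2 from -0.64 to 1.70, so its direction differed between libraries.

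Somatic classes were not used to choose the genes, so their levels were compared between species with edgeR's quasi-likelihood test on summed counts, with Benjamini-Hochberg adjustment over all genes tested and a call at an adjusted p under 0.05 and a log2 difference of at least 1. Differences are opossum minus mouse and also carry whatever separates the 2 species' gene annotations and 3' ends, which cannot be told apart from level here. Between 23.6% and 58.9% of all genes were called, depending on the class, so a single call is common. The median difference of all tested genes was 0.05 to 0.45, highest in immune cells, against which the values below are to be read. For a gene that passed the filter on low counts only through the species in which it was high, the filter itself favoured a difference. The counts below are therefore a description, and the adjusted p-values of such genes are no support for a difference. No library of the other species reached the filter level for 2 of the 3 genes tested in Sertoli-like cells (ORMDL3, DDIT4L), 4 of 6 in Leydig-like cells (ORMDL3, PKIA, EMX2, DDIT4L), 3 of 6 in stromal cells (MGLL, EMX2, DDIT4L), 3 of 5 in endothelial cells (MAP7D2, ORMDL3, EMX2) and 1 of 2 in immune cells (CYP2U1). Every gene called below was also called with no filter on low counts, but that run used the same counts and adds no support.

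In Sertoli-like cells 3 of the 8 genes passed the filter on low counts and 3 were called, where 40.7% of genes were called (21.0% higher in the opossum and 19.7% lower). ORMDL3 stood at 243, 239 and 309 CPM in the mouse, its highest class there, and at 4.66, 6.29 and 6.33 CPM in the opossum, with a log2 difference of -5.79 (SE 0.678, adjusted p = 0.000262). DDIT4L stood at 45.7, 57.4 and 55.2 CPM in the mouse and 3.93, 2.44 and 7.66 CPM in the opossum, a difference of -4.08 (SE 0.668, adjusted p = 0.000684). Mouse spermatocytes held DDIT4L at a mean of 82.6 CPM, and germ-cell transcripts were counted in mouse Sertoli-like cells, as given above. Their part in the mouse DDIT4L level was not tested. ORMDL3 and DDIT4L were also seen less in opossum single cells than in bulk, as given below. G2E3 was the gene that was higher in the opossum, at 97.8, 84.6 and 213 CPM against 13.8, 24.1 and 24.4 CPM (2.31, SE 0.626, adjusted p = 0.0113), and without mouse replicate 1 it was no longer called (2.17, adjusted p = 0.0549). Without the cluster led by ALAS2, which leaves 235 opossum cells, the differences were -4.67 for ORMDL3, -5.01 for DDIT4L and 2.86 for G2E3, and all 3 were called.

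In Leydig-like cells 5 of 6 tested genes were called, beside 58.9% of all genes (30.8% higher and 28.1% lower). ORMDL3 stood at 81, 112 and 73.6 CPM in the mouse and 5.70, 5.80 and 7.48 CPM in the opossum (-3.78, SE 0.389, adjusted p = 3.76e-07). PKIA was lower in the opossum, at 0.246, 0.45 and 2.29 CPM against 19.7, 19.3 and 7.19 CPM (-3.99, SE 0.681, adjusted p = 8.6e-05), and the difference was -5.40 without opossum replicate 3. DDIT4L was called lower in the opossum (adjusted p = 2.43e-05), with a ratio of mouse to opossum of 69.5 (95% exact interval 17.7 to 599) from 32 and 2 counts. EMX2 was called higher (adjusted p = 0.000439), with a ratio of 27.4 (4.82 to 1090) from 119 counts and 1 count, and without an opossum cluster led by erythroid genes it did not pass the filter on low counts and was not tested. G2E3 was higher in the opossum, at 16.2, 21.9 and 36.4 CPM against 1.38, 6.31 and 15.3 CPM (1.94, SE 0.621, adjusted p = 0.0121), and without mouse replicate 1 it was no longer called (1.40, adjusted p = 0.0677). MGLL was not called: the mouse held 214, 166 and 97.6 CPM and the opossum 104, 83.7 and 209 CPM, which overlap (-0.29, SE 0.393, adjusted p = 0.545), and opossum Leydig-like clusters ranged from 39.2 to 360 CPM.

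In peritubular and stromal cells all 6 tested genes were called, beside 51.6% of all genes (25.7% higher and 25.9% lower). EMX2 had its highest class mean of either species there, at 143, 126 and 96.1 CPM in the opossum, and stood at 4.0, 0 and 0.617 CPM in the mouse, with a ratio of 73.9 (95% exact interval 20.4 to 611) from 772 and 2 counts. DDIT4L went the other way, at 103, 125 and 65.5 CPM in the mouse and 0.401, 0 and 0.771 CPM in the opossum, a ratio of 209 (69.8 to 1030) from 120 and 3 counts. In these single-cell counts the high stromal levels of these 2 genes lay in opposite species. Each passed the filter only through the species in which it was high. DDIT4L was also seen less in opossum single cells than in bulk, as given below, so its low opossum level carries that limit. EMX2 was seen more in opossum single cells than in bulk, so its high opossum level carries the opposite limit. PKIA stood at 63.6, 58.6 and 57.3 CPM in the mouse and 14.8, 24.7 and 15.0 CPM in the opossum (log2 difference -1.75), and G2E3 at 5.47, 11.3 and 23.5 CPM against 45.3, 48.2 and 44.4 CPM (1.78, adjusted p = 0.0124), with 2.75 for G2E3 without mouse replicate 3. The fitted log2 difference of EMX2 was 6.12, and 10.47 without mouse replicate 1, where the remaining mouse libraries stood at 0 and 0.617 CPM. MGLL stood at 30.3, 25.6 and 42.8 CPM in the mouse and 2.33, 7.09 and 6.07 CPM in the opossum (-2.70, adjusted p = 0.00162). With counts rounded up that difference was -0.86 and was no longer called (adjusted p = 0.0964). ORMDL3 was also called lower in the opossum, at -2.71.

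In endothelial cells 3 of 5 tested genes were called, beside 44.7% of all genes (23.1% higher and 21.6% lower), with 2 mouse libraries because the third had 10 cells. MGLL had its highest class mean of either species there, at 1040 and 431 CPM in the mouse and 34, 58.4 and 15.5 CPM in the opossum (-4.78, adjusted p = 0.000583), and 44.7% of thinned mouse endothelial cells held it. MAP7D2 was at 0 in both mouse libraries and at 149, 71.6 and 61.6 CPM in the opossum, at least 10.2-fold higher given a floor of 3 counts over the group (adjusted p = 0.00297). With the left-out mouse library of 10 cells added, the summed mouse estimate was 1.97 counts. The 0 and this bound therefore hold only for the 2 mouse libraries kept. ORMDL3 was lower in the opossum (-2.56, adjusted p = 0.00928), a call lost without mouse replicate 2. EMX2 stood at 17.4 and 14.5 CPM in the mouse and 19.1, 39.4 and 45.5 CPM in the opossum and was not called (0.75), nor was G2E3 (0.37).

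In immune cells 1 of 2 tested genes was called, beside 23.6% of all genes (14.9% higher and 8.71% lower), again with 2 mouse libraries. CYP2U1 was at 0 in both mouse libraries and at 24.1, 58.7 and 78.4 CPM in the opossum, at least 3.19-fold higher (adjusted p = 0.0386), and 1 opossum immune cluster held 65.3 CPM against 16.1 CPM in the other. The fitted difference was 7.60 to 8.53 with 1 library left out. With the mouse at 0 counts, only the bound of 3.19-fold is measured, and this range does not show a stable size. The call was lost without either mouse library, where the lone mouse library is assumed to vary like the opossum ones. It was also lost without opossum replicate 2 or 3, and with the replicate number as a block (7.57, adjusted p = 0.0785). G2E3 was not called (0.05).

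**Figure D3:**
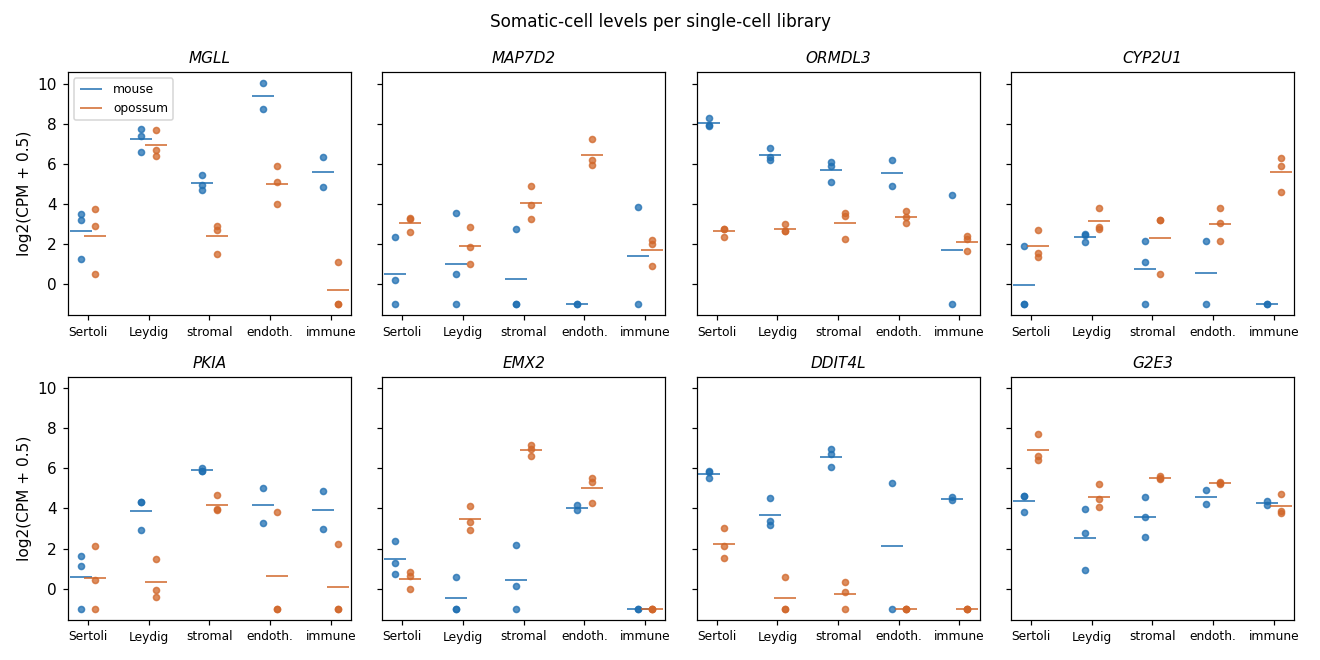
Levels of the 8 genes in the 5 somatic classes as log2(CPM + 0.5), 1 point per single-cell library with at least 20 cells of the class, with a dash at the mean. ORMDL3 in Sertoli-like cells and DDIT4L in stromal cells are high in the mouse, and EMX2 in stromal cells is high in the opossum.

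Across all 9 classes the highest mean level of a gene lay in a different class in each species for every one of the 8 genes. This is a description, since germ classes chose them. The share of all genes for which it holds was not computed, so the count is no result about these genes. MGLL was highest in endothelial cells in the mouse (736 ± 431 CPM, SD, n = 2), above spermatocytes (162 ± 79.9, n = 3) and Leydig-like cells (159 ± 58.5, n = 3), whose levels overlap. In the opossum its first 2 classes, round spermatids (220 ± 53.1 CPM, n = 3) and elongating spermatids (212 ± 66.5, n = 3), did not differ beyond their spread. The same held for MAP7D2 in the opossum, at 273 ± 100.0 CPM in elongating and 200 ± 117 CPM in round spermatids. DDIT4L in the mouse stood at 97.8 ± 30.1 CPM in stromal cells and 82.6 ± 41.2 CPM in spermatocytes, which overlap, while its highest opossum class, Sertoli-like cells, held 4.68 ± 2.69 CPM. CYP2U1 had a clear first class in the opossum, round spermatids at 214 ± 13.0 CPM above immune cells at 53.7 ± 27.5 CPM, and none in the mouse, where spermatocytes at 6.99 ± 2.02 CPM and spermatogonia at 6.24 ± 3.4 CPM overlap.

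Bulk testis of the opossum gave the course over ages, which the choice of genes did not use. Expression there is in TPM, a length-scaled share of all transcripts, and differences were tested with limma on log2(TPM + 1), with library type in the model, over 19300 genes, with the thresholds used above. In bulk tissue, fewer cells of a type and less RNA per cell cannot be told apart. From 1 month to the adult, 5 of the 8 genes were called, beside 44.8% of all genes (29.4% higher and 15.4% lower), and the median of all genes was 0.59 higher on the log2 scale.

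MGLL stood at 0.0798 and 0 TPM at 1 month, at 1.05, 2.41, 2.46 and 0.123 TPM at 2 months and at 11.4, 13.1, 17.2 and 7.04 TPM at 3 months. At 4 months it stood at 47.1, 12.1 and 22.3 TPM, and in adults at 5.90 to 27.2 TPM with a median of 18.1 TPM. No library of 1 or 2 months reached the lowest library of the later ages. The adult level was higher than that at 1 month by 3.97 on the log2(TPM + 1) scale (SE 0.557, adjusted p = 1.98e-05), and that at 3 months was higher than at 2 months by 2.29 (SE 0.634, adjusted p = 0.0157).

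CYP2U1 stood at 2.71 and 2.40 TPM at 1 month and at 3.62, 4.66, 4.71 and 2.75 TPM at 2 months. At 3 months it stood at 26.2, 27.7, 32.8 and 25.5 TPM, then at 14.5, 22.3 and 20.5 TPM at 4 months and at 3.49 to 35.8 TPM (median 17) in adults. Adult replicate 1 was the low library, and it was also the lowest adult library for MGLL and MAP7D2. The step from 2 to 3 months was 2.53 (SE 0.626, adjusted p = 0.00903) and the adult level was 2.42 above 1 month (SE 0.55, adjusted p = 0.00155). These 2 of the 8 genes were called between 2 and 3 months, where 23.0% of all genes were (15.0% higher and 8.04% lower).

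The summed TPM of 11 round-spermatid markers found in the tables ranged from 55.3 to 62.7 at 1 month and from 56.8 to 183 at 2 months, then from 864 to 980 at 3 months and 417 to 1280 in adults. None of the 11 was at 0 from 2 months on, and 2 were at 0 at 1 month. The part of these markers in the values of MGLL and CYP2U1 was not tested. The only polyA library at 2 months was replicate 1, and without it neither gene was called between 2 and 3 months, with library type then estimated from adult replicate 2 alone. The differences were then 1.80 for MGLL and 2.37 for CYP2U1, with SE 0.92 and 0.922.

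MAP7D2 stood at 3.29 and 4.63 TPM at 1 month, at 1.63, 0.481, 0.571 and 0.398 TPM at 2 months and at 5.79, 7.85, 11.9 and 5.25 TPM at 3 months. At 4 months it stood at 7.66, 8.42 and 14.8 TPM and in adults at 2.48 to 30.9 TPM, with a median of 22.0 TPM. The adult level was 1.75 above that of 1 month (SE 0.605, adjusted p = 0.024), although 1 adult library lay below both libraries of 1 month. The MAP7D2 values rest on thin coverage, 0.131 to 5.3 over all bulk libraries. In replicate 1 of 1 month its coverage was 0.986 at 2.19 FPKM, while that of CYP2U1 was 12.5 at 1.8 FPKM. The cause was not tested.

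EMX2 and PKIA were the genes that were lower in adults. EMX2 stood at 12.3 and 12.2 TPM at 1 month, at 5.30, 1.70, 2.66 and 1.46 TPM at 2 months, at 1.27 to 3.29 TPM at 3 months, at 5.91, 2.32 and 0 TPM at 4 months and at 1.01 to 4.63 TPM in adults. Both libraries of 1 month thus lay above all 18 later ones, and the difference was -1.93 (SE 0.548, adjusted p = 0.00786). PKIA stood at 11.3 and 13.3 TPM at 1 month, at 10.9, 4.16, 5.19 and 16.4 TPM at 2 months, at 1.91 to 5.64 TPM at 3 months, at 10.5, 4.01 and 0.672 TPM at 4 months and at 1.5 to 5.49 TPM in adults, with a difference of -1.70 (SE 0.598, adjusted p = 0.0254). The summed TPM of 16 stromal markers ranged from 7630 to 9770 at 1 month and from 767 to 3240 in adults, and that of 17 spermatogonial markers from 325 to 332 and from 428 to 1440. The part of these markers in the values of EMX2 and PKIA was not tested.

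Without either library of 1 month, only MGLL and CYP2U1 were called between 1 month and the adult. The remaining library of 1 month is then assumed to vary like the other groups. The differences stayed close to those above, at 1.55 and 1.94 for MAP7D2, -1.92 and -1.93 for EMX2 and -1.81 and -1.60 for PKIA, with adjusted p from 0.0628 to 0.165. With the replicate number as a block, the adjusted p was 0.246 for MAP7D2, 0.0556 for EMX2 and 0.0575 for PKIA.

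ORMDL3, G2E3 and DDIT4L were not called at any step. ORMDL3 stood at 38.8 and 27.2 TPM at 1 month and at 24.2 to 53.4 TPM in adults (0.37, adjusted p = 0.358). G2E3 stood at 22.8 and 23.3 TPM at 1 month, 20.5 to 22.9 TPM at 2 months, 17.3 to 20.2 TPM at 3 months, 11.7 to 15.1 TPM at 4 months and 9.55 to 23.3 TPM in adults (-0.36, adjusted p = 0.328). DDIT4L stood at 6.37 and 5.54 TPM at 1 month, 8.25 to 24.4 TPM at 2 months and 1.60 to 14.1 TPM in adults (0.01, adjusted p = 0.987).

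With limma, none of the 8 genes was called from 1 to 2 months, where 11.1% of all genes were (7.22% higher and 3.88% lower), while the 2 genes EMX2 and ORMDL3 passed 0.05 before adjustment. None was called from 3 to 4 months (0.0% of all genes), where 1 gene, DDIT4L, passed 0.05 before adjustment, or from 4 months to the adult (0.0259% of all genes), where 0 did. The share of all genes under 0.05 before adjustment was not computed, so those counts are a description. Only limma was applied to the bulk values.

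**Figure D4:**
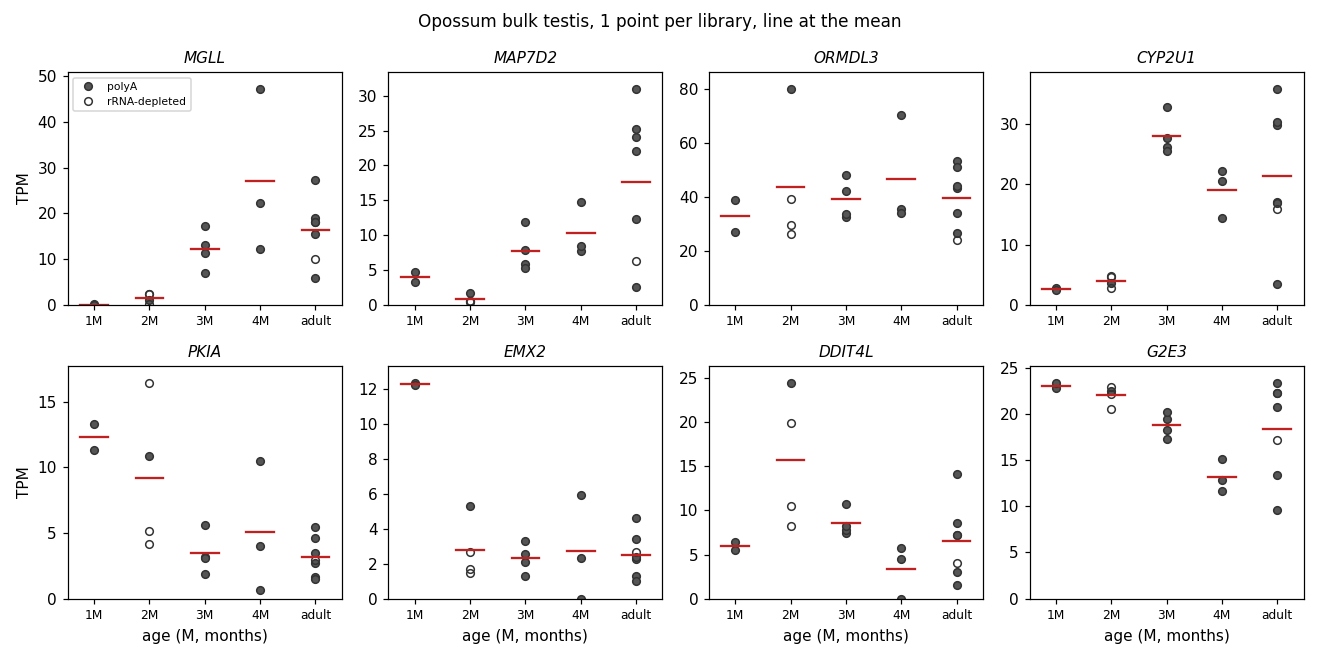
Opossum bulk testis, TPM of the 8 genes at 1, 2, 3 and 4 months and in adults, 1 point per library (filled for polyA, open for rRNA-depleted) with a line at the mean. MGLL and CYP2U1 are higher from 3 months on, and EMX2 is highest at 1 month.

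The genes that act with each member were followed in the same comparison of adult and 1 month, with the member counted in its list; the lists were chosen with earlier results of these data known, and the background is the 29.4% and 15.4% given above. The genes called lower that are named as such were chosen after their values were seen, where abundance or paralogy did not already name them. Of 8 tested genes of endocannabinoid turnover 4 were called higher and 1 lower, with a median of 0.88. ABHD6 and ABHD12, hydrolases of the same lipid as MGLL, rose by 6.95 and 1.73. The lipid carrier FABP5 (0.28), the most abundant gene of this list, and GDE1 (0.39) were not called, and the gene called lower was FABP7 (-5.22), another lipid carrier. Of 13 genes of sphingolipid synthesis 4 were called higher and 1 lower (median 0.96), among them sphingosine kinase SPHK1 (3.21) and ceramide synthase CERS2 (1.19). ORMDL1, the closest paralog tested, had a difference of -0.96, under the size threshold. The acid ceramidase ASAH1 (-1.04) and CERS6 (0.96) were not called, and the gene called lower was the ceramide desaturase DEGS1 (-2.29).

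Of 16 genes of the cAMP-dependent protein kinase group 6 were called higher and 3 lower (median 1.33). The anchoring proteins of the sperm tail AKAP4 and AKAP3 rose by 8.73 and 7.98 and the regulatory subunit PRKAR2A by 4.65, while the subunit PRKAR1A fell, with a difference of -2.20. The others called lower were PKIA itself and the catalytic subunit PRKACB (-1.43). Of 5 genes of the MAP7 and kinesin-1 group 3 were called higher and 0 lower (median 1.69), with MAP7 at 1.69, the kinesin heavy chain KIF5C at 1.86 and KIF5B at 0.00 and KLC4 at -0.20, neither called. Of 8 fatty acid hydroxylase genes 2 were called higher and 1 lower (median 0.41), and POR, the reductase that supplies electrons to microsomal P450 enzymes, rose by 3.51. CYB5A (0.31), the most abundant of this list, CYP2R1 (0.50) and CYP20A1 (-0.20) were not called, and the gene called lower was CYP4F22 (-3.12).

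Of 8 early gonad factors 1 was called higher and 2 lower (median 0.31): NR5A1, the regulator of steroid-making genes, rose by 3.11, and LHX9, a homeobox gene of the early gonad, fell, with a difference of -1.98, EMX2 being the other. WT1 (1.70) and GATA4 (0.77) were not called. Of 14 regulators of the mTOR complex 1 8 were called higher and 1 lower (median 1.47), with DDIT4 at 1.28, SESN1 at 1.42 the activating GTPase RHEB, the gene called lower, at -1.70 and TXNIP at 0.35, not called. Of 11 genes of the G2E3 list 3 were called higher and 1 lower (median 0.76), and PHF7, a PHD-finger gene of male germ cells, rose by 3.12. WEE1 (1.48) and PHF6 (-0.60) were not called, and the gene called lower was HECTD2 (-1.59).

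The single-cell and bulk levels of adult opossum testis were set side by side, since 3' counting and whole-transcript sequencing can see different transcript ends. Over 9064 genes the median log2 ratio of mean single-cell CPM to mean adult TPM was 0.33. ORMDL3 stood at 39.5 TPM in bulk and 7.08 CPM in single cells, a log2 ratio of -2.33 at percentile 4.82 of all genes, and DDIT4L at 6.55 TPM and 0.672 CPM (-2.17, percentile 5.59). These 2 genes were thus seen less in opossum single cells than in bulk, and their low opossum single-cell levels above carry that limit. The other 6 genes had ratios above that median, from 0.51 for CYP2U1 (percentile 55.2) to 2.44 for MGLL (percentile 90.6). Between them lay PKIA (1.54, percentile 78.9), G2E3 (1.77, 82.5), MAP7D2 (2.25, 88.6) and EMX2 (2.30, 89.2). G2E3, MAP7D2, EMX2 and MGLL were thus seen more in opossum single cells than in bulk. Their high opossum single-cell levels above carry the opposite limit, and the cause was not tested.

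The genes whose class profile was most like that of each member were ranked by Pearson's r of log2(CPM + 1) over 25 mouse or 27 opossum class sums, which share libraries, so r is a description. Of mouse genes, Lrr1 (0.966), Tex19.1 (0.95) and Mbnl3 (0.933) were most like MAP7D2, and 4930555A03Rik (0.924) was most like EMX2. Of opossum genes, NFIB (0.942), EGFR (0.941) and HOXB4 (0.932) were most like EMX2. ZNF512B (0.96) was most like ORMDL3, SIPA1L1 (0.925) like G2E3 and IGF2BP2 (0.911) like PKIA. For MGLL and MAP7D2 in the opossum the nearest genes were PAQR5 (0.872) and RETREG1 (0.892), and for CYP2U1 RELT (0.892). No list is given for CYP2U1 in the mouse and DDIT4L in the opossum, whose levels stayed under 10 CPM in all classes, a condition added after seeing the data.

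Some reads may not belong to the gene they are counted for. In the mouse annotation genes of the opposite strand overlap Pkia (Gm66025, 45484 bases), Mgll (the longest are Gm67059, 19262 bases, and Gm26588, 10377 bases), Emx2 (Emx2os, 1344 bases), Ormdl3 (Gm74036, 961 bases) and Cyp2u1 (4930534D22Rik, 585 bases). On the same strand Mgll also overlaps Gm44001, Gm44005 and Gm43999 over 2889 to 3773 bases, and Map7d2 and Ddit4l overlap short RNA genes over 109 and 73 bases. The opossum G2E3 overlaps 2 unnamed genes of the opposite strand over 1122 bases. These lengths span introns as well as exons. Counting by strand is not given in the sources used here, so the levels of these genes are uncertain to that extent.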

How the data were processed

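Single-cell libraries of adult testis (3 mouse, 3 opossum) and 20 bulk libraries of opossum testis were analysed. Per the submitters' processing notes, Cell Ranger 6.0.1 was used, and single-cell matrices were deposited as estimated counts, of which 93.08% to 97.37% are not whole; the step that made them so is not given in the sources used here. Bulk tables hold coverage, FPKM and TPM per gene, which the authors deposited; the submitters' processing notes name HISAT2 2.2.1, SAMtools 1.12 and StringTie 2.1.4. Reads covered 2.9 to 7.12 gigabases per bulk library. The notes name GRCm39, and the labels name ASM229v1 for opossum single-cell replicate 3; the bulk build is not given in the sources used here.

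Barcodes needed 1000 UMIs and 500 genes, the top 8% by doublet score were dropped from each library, and cells were clustered per species (scanpy 1.11.5, leidenalg 0.10.2, 30 principal components of 2000 variable genes, resolution 1). A cluster took the class with the highest marker score, with at least 3 markers. Counts were summed per class and library (at least 20 cells) and scaled to CPM. Rounded sums were compared between species with edgeR 4.0.16, bulk log2(TPM + 1) with limma 3.58.1 (genes of at least 1 TPM in 2 libraries), adjusted over all genes tested; both were tested on simulated data, where changes of moderate size in Sertoli-like and immune cells were seldom or never called, so a gene not called there may still differ. DESeq2 1.42.0, other scalings, filters, depths, roundings and leaving out libraries were alternatives. Intervals cover counting error only. Mouse positions come from GENCODE M39.

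The members and lists were chosen with earlier results of these data known. The text names the members, up to 4 genes of each list (highest bulk TPM and paralogs) and the most alike genes. Same-numbered libraries (numbers from the labels) correlated over 0.1 in all 3 pairs in Sertoli-like cells, where the block kept the 3 calls, and in both pairs in immune cells (0.186 and 0.143), where 2 pairs are too few to show pairing. In bulk, replicate 3 of 4 months and replicate 3 of the adult correlated at 0.672.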

Additional observations from a re-analysis of the deposited data

Results flagged for a closer look

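MAP7D2 in bulk testis at 2 months was highest in replicate 1, at 1.63 TPM against 0.398 to 0.571 TPM in the other 3 libraries, far from them for the range of the group. Replicate 1 was the polyA library of that age, and the other 3 were rRNA-depleted, so the value and the library type move together; the part of library type was not tested. In 24 groups looked at, chance alone flags about 1 in 20.

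The log2 change from spermatocytes to round spermatids moved up in every library of one species and down in every library of the other for 5 genes. The opossum change minus the mouse change was 11.13 for MGLL, 8.53 for CYP2U1 and 8.08 for MAP7D2, and it was -8.37 for ORMDL3 and -6.45 for G2E3. These differences were not tested, because the genes were chosen for them.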

How the results depend on the processing

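Under other settings, 138 differences of single genes between species kept direction and call, 4 reversed and 2 lost the call; in bulk 70 did so, 4 reversed, 4 lost and 2 gained a call. Some values that changed a call, a count or a direction are given here with the larger moves, but not all of them. The cause was not tested unless a setting names it. The share of all genes called is not given for each setting, so the counts of called genes only describe how the calls moved. For bulk calls, 1 gene was called from 1 to 2 months with FPKM and 1 with a pseudocount of 0.1, against 0; 2 were called from 1 month to the adult with the replicate block (2 to 5 with a library left out), and 0 to 3 from 2 to 3 months with a library left out. EMX2 lost its adult call at a pseudocount of 0.1 (adjusted p = 0.0677). Between species, cells of at least 2000 UMIs gave 5 called genes in Sertoli-like cells, where MAP7D2 (-3.39) and MGLL (-2.31) were added and DDIT4L and ORMDL3 were -2.63 and -4.33, and 3 in Leydig-like cells, where EMX2 and PKIA were not tested. MAP7D2 in Sertoli-like cells was 1.93, not called, with no filter on low counts. With counts rounded up, EMX2 and G2E3 in Leydig-like cells were 2.55 and 1.13, both called. In Leydig-like cells EMX2 was 3.78 to 7.70 and DDIT4L -7.78 to -4.97 with a library left out, EMX2 not being tested without an opossum library. In immune cells 3 were called with no filter on low counts, 0 with the replicate block (CYP2U1 adjusted p = 0.0785) and 0 to 1 with a library left out. Whether same-numbered libraries are paired was not tested: they correlated over 0.1 in 3 pairs in Sertoli-like cells and 2 pairs in immune cells. In endothelial cells replicates 1 and 2 correlated at 0.223 and 0.035. In bulk, replicates 1, 2 and 3 of 4 months and the adult correlated at -0.285, 0.12 and 0.672. The other bulk pairs lay from -0.152 to 0.075. The block changed no other call named here than those of MAP7D2, EMX2, PKIA and CYP2U1.

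The other directions that reversed were of differences that were not called or had no test. EMX2 from 2 to 3 months was 0.30 without 2M replicate 1 (-0.97 to 0.30 with a library left out). DDIT4L from 1 month to the adult was -0.18 with FPKM, -0.04 with a pseudocount of 0.1, -0.02 with polyA libraries, -0.19 with the block, and -0.07, -0.02, -0.03 or -0.19 without single libraries (-0.19 to 0.28 in all). MGLL in Leydig-like cells was 0.03 without mouse replicate 1 (-0.69 to 0.03). With counts rounded up, EMX2 and G2E3 in endothelial cells were -0.17 and -0.10 and G2E3 in immune cells -0.10; the last was -0.28 with the block and -0.20 without mouse replicate 1. From round to elongating opossum spermatids, without the cluster named on 3 markers, MGLL was 0.25, ORMDL3 -1.10 and EMX2 -0.24. For the same change MGLL was 0.39 in cells of at least 2000 UMIs and 0.09 at resolution 2, against -0.08. ORMDL3 was -1.15 and -0.39 in these settings, against 0.01. For PKIA the opossum change into round spermatids was -4.43 in cells of at least 2000 UMIs and -4.62 at resolution 2. No value at 2000 UMIs was had for stromal, endothelial and immune cells. Opossum DDIT4L and PKIA had few counts in the spermatid classes, and the cause was not tested.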
